A study of Homo sapiens with 12 samples.

Results

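HepG2 cells moved to Plasmax were compared with HepG2 cells kept in EMEM, over 6 of the 12 libraries of the series (3 per medium) and over the 10945 of 11546 table rows that carry a gene symbol. HepG2 is an established human liver tumour line that keeps many hepatocyte functions, among them secretion of plasma proteins and synthesis of cholesterol. EMEM is a classical minimal medium, whereas Plasmax was composed to bring nutrients and trace elements near their levels in human plasma. The cells were wild type, were grown in EMEM before plating in 6-well plates, also in EMEM, and a day (24 h) after plating received Plasmax or EMEM, each with 10% heat-inactivated fetal bovine serum. The medium was renewed after 48 h and the cells were harvested after 96 h, so the EMEM cells had a change of medium but no change of formulation. The other 6 libraries came from cells handled alike in DMEM with low or high glucose (LGDMEM, HGDMEM). All libraries were QuantSeq libraries, in which reads come from the 3′ ends of polyadenylated RNA. The labels do not say that the replicates of a medium were separate cultures, so the p-values reflect only how much these libraries vary, which may be technical variation.

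The deposited counts of the 6 libraries summed to between 4287509 and 5816144, with 4157693 to 5623420 counts on rows that have one. Low rows had been removed before deposit, so these sums are not full depth. All 9 hepatocyte markers looked for were measured, whereas the 4 endothelial markers and the leukocyte genes PTPRC and CD3E were not among the rows. The leukocyte genes CD68, LYZ and CD14 and the stromal genes COL1A1, PDGFRB and ACTA2 were measured, and their levels are given below. One library of another medium, LGDMEM 3, stood apart on the second principal component of log2 CPM (−51.8, against −11.0 to 14.7 in the others), so LGDMEM levels are given per library. Mitochondrially encoded transcripts took 12.3%, 13.9% and 14.1% of the counts in Plasmax and 12.3%, 10.2% and 11.8% in EMEM.

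Plasmax altered a wide range of transcripts. Of the 10945 genes tested, 1094 were higher and 1323 lower in Plasmax than in EMEM at a Benjamini-Hochberg adjusted p under 0.05 in edgeR's quasi-likelihood test, which is 10.0% and 12.1% of the genes tested and 22.1% in all. In what follows, rose and fell are used for genes past this threshold, levels are counts scaled to the library total (CPM), and a bare value in brackets after a gene is its log2 fold change, Plasmax over EMEM. The median log2 fold change of all genes was 0.015 with quartiles of −0.39 and 0.38. Among called genes, 427 rose and 568 fell by at least 2-fold, 103 and 108 by at least 4-fold, and 42 and 30 by at least 8-fold. Changes under 1.5-fold made up 224 of the rises and 269 of the falls. The share of genes called grew with the level of expression, with 10.3% below the first quartile of level and 36.3% above the last, while the median size of a called change was 1.95 on the log2 scale below the first quartile and 0.63 above the last. The Plasmax and EMEM libraries did not overlap in 2375 of the 2417 called genes, and in 39.4% of all genes tested. Without EMEM 1, 714 genes rose.

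**Figure D1:**
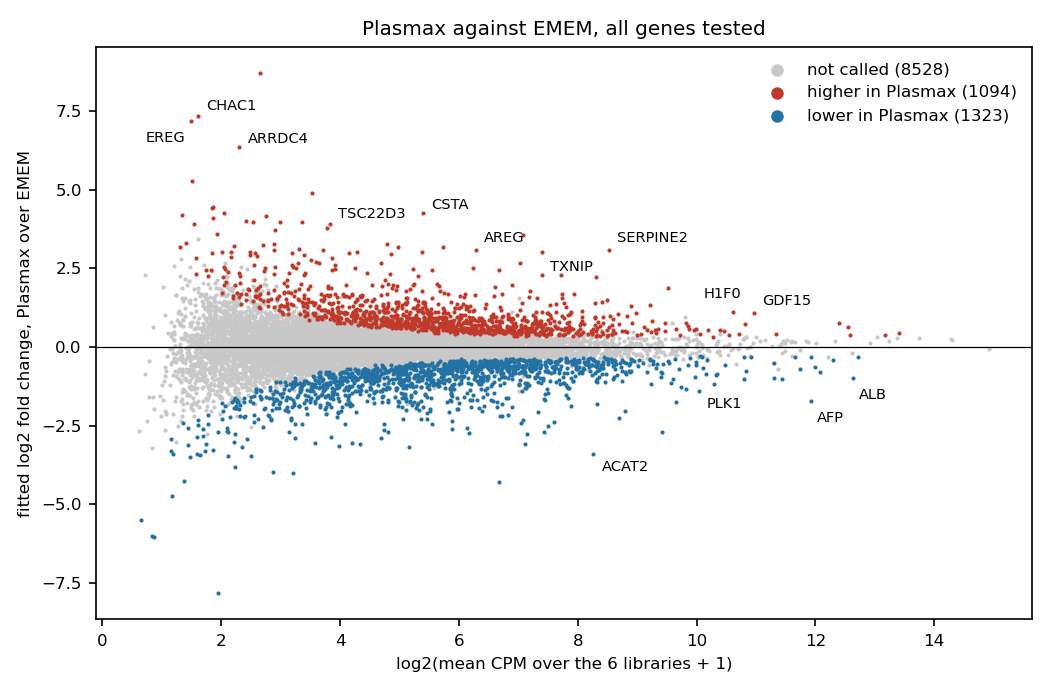
Fitted log2 fold change of each gene (Plasmax over EMEM) against its mean level over the 6 libraries, on a log2 axis. Genes higher in Plasmax are red (1094), genes lower in Plasmax blue (1323) and genes not called grey. Changes of small size were called mainly among abundant genes, at the right, and the largest fitted values lie among genes with few reads, at the left.

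The groups below were taken from 43 gene lists with 789 measured members and from 10 gene families defined by their symbols. For each, the number of members called is read against the 10.0% and 12.1% of all genes that rose and fell, and the median against 0.015. The lists were not tested as sets, and lists and families were chosen with earlier results of these data known. The comparison with all genes therefore describes the groups and is no independent support.

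Cholesterol is made from acetyl-CoA through mevalonate and squalene in a chain of enzymes in the cytosol and the endoplasmic reticulum. Transcription of the whole chain is raised by the membrane-bound factor SREBP-2 when sterols in the cell are low, and liver cells run the pathway at a high rate. Of 20 measured genes of the chain, 18 fell in Plasmax and 0 rose, and the median of their log2 fold changes was −2.36.

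ACAT2, the cytosolic thiolase that opens the chain, had 65.7, 43.8 and 48 CPM in Plasmax, against 564, 476 and 635 CPM in EMEM (log2 fold change −3.41, SE 0.21, edgeR adjusted p = 2.89e-08). HMGCS1, the synthase of the next step, had 44.5, 47 and 45.1 CPM in Plasmax, against 345, 242 and 306 CPM in EMEM (log2 fold change −2.71, SE 0.26, edgeR adjusted p = 1.15e-06). For both genes the highest Plasmax library lay far under the lowest EMEM library. In the later mevalonate steps, falls were of like size in the decarboxylase MVD (−2.88), the isomerase IDI1 (−2.74) and the farnesyl diphosphate synthase FDPS (−2.58). SQLE, the epoxidase that opens the sterol branch, had 49.4, 24.1 and 34.1 CPM in Plasmax, against 225, 253 and 258 CPM in EMEM (log2 fold change −2.78, SE 0.22, edgeR adjusted p = 9.49e-08). DHCR7, the reductase of the last step of cholesterol synthesis, had 17.5, 20.3 and 19.2 CPM in Plasmax, against 83.5, 86.5 and 120.1 CPM in EMEM (log2 fold change −2.35, SE 0.18, edgeR adjusted p = 1.05e-07). The libraries of the 2 media stood apart in each of these enzymes. The members not called were PMVK (−0.29) and HSD17B7 (−0.32), a mevalonate and a sterol enzyme chosen after their values were seen, of which PMVK had 8.65, 7.77 and 12.6 CPM in Plasmax, against 9.22, 10.9 and 15.4 CPM in EMEM. Its libraries overlapped between the media.

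The promoters of the pathway often held the same letters. Promoters of 250 bases before to 50 after the gene start were available from RefSeq (GRCh38.p14, another build than that of the counts) for 15 of the 20 genes, and 12 of them (80%) held CCAAT, the letters bound by the factor NF-Y, on either strand. Of 8672 promoters of genes tested 37.0% did, and of all 27305 promoters 35.7%. CCAAT was also frequent in some other lists, with 20 of 30 mitotic promoters (66.7%) and 10 of 12 promoters of serine and one-carbon genes (83.3%). No match in a sterol promoter overlapped another of the motifs searched. The sterol response element, written as TCACNCCAC and searched on both strands, was found in 0 of the 15 and in 1.14% of the promoters of genes tested. The 3 called genes with the smallest p among those holding CCAAT are shown to place the motif. Capitals mark 1 match, which reads ATTGG where it lies on the other strand, and each sequence is given 5′ to 3′ on the strand of the gene.
MSMO1: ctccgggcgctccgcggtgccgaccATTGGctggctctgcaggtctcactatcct
FDPS: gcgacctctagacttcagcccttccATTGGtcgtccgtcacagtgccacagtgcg
DHCR7: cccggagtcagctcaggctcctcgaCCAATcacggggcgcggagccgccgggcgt
They lie at chr4:165327459-165327513, chr1:155308665-155308719 and chr11:71448458-71448512 (minus strand). MSMO1 removes methyl groups from the sterol ring and fell by a log2 fold change of −3.07. Such a match describes the sequence and does not show binding.

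The genes that control sterol uptake moved the same way where they were called, with 7 of 14 lower and 0 higher. STARD4, a sterol carrier of the cytosol, had 1.24, 3.22 and 1.45 CPM in Plasmax, against 12.6, 19.4 and 12.8 CPM in EMEM (log2 fold change −2.90, SE 0.35, edgeR adjusted p = 1.5e-05), with no overlap. The intestinal-type cholesterol transporter NPC1L1 (−2.24) and the sigma-2 receptor TMEM97 (−2.05) fell as well. SREBF2, the gene of SREBP-2, had 26.2, 20.5 and 26.7 CPM in Plasmax, against 35.9, 44 and 49 CPM in EMEM (log2 fold change −0.82, SE 0.19, edgeR adjusted p = 0.00539). SREBF1, the gene of the factor that drives fatty acid synthesis, was not called, with 24.3, 27.7 and 18.6 CPM in Plasmax, against 20.9, 30.4 and 27.1 CPM in EMEM (log2 fold change −0.16, SE 0.23, edgeR adjusted p = 0.69). The genes of the proteins that hold or cut SREBP were not called either, as SCAP (0.24), INSIG2 (−0.06), MBTPS1 (0.21) and MBTPS2 (0.04) show. NPC1, which releases cholesterol from lysosomes (0.34), MYLIP, a ubiquitin ligase (0.70), and ABCA1, which exports cholesterol (−0.28), were not called. NPC1, MYLIP, NPC1L1 and the SREBP processing genes were chosen after their values were seen.

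**Figure D2:**
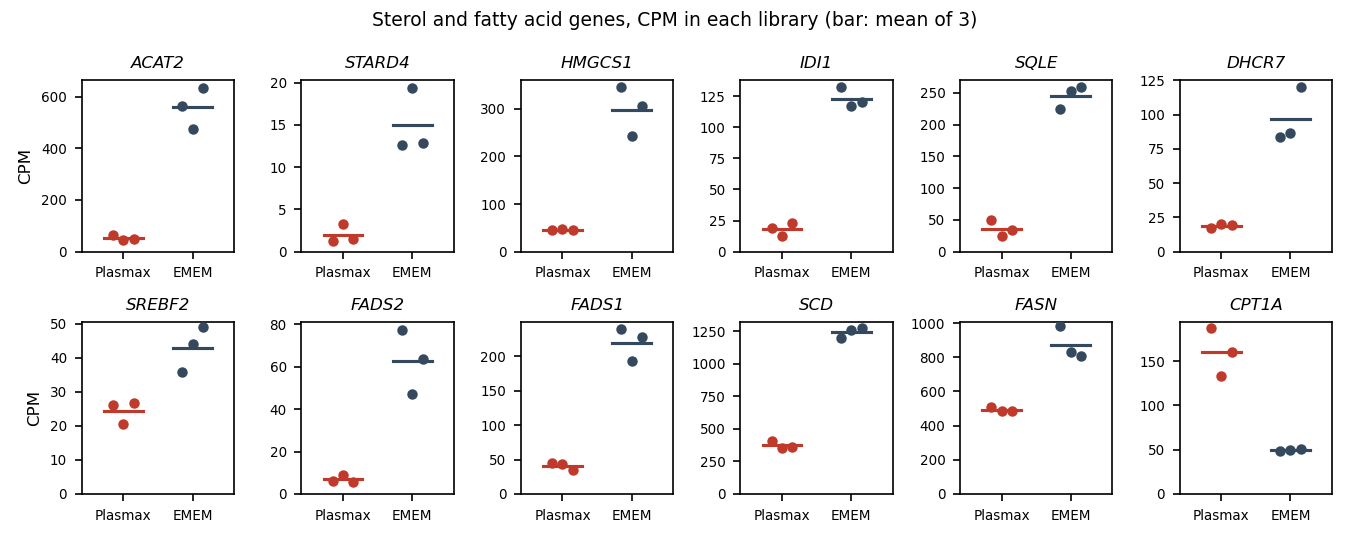
CPM of 12 lipid genes in each of the 3 Plasmax libraries (red) and 3 EMEM libraries (dark blue), with bars at the means. The first 11 genes are lower in every Plasmax library than in any EMEM library, and CPT1A, a gene of fatty acid oxidation, is higher.

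Fatty acids are built from acetyl-CoA by ACLY, ACACA and FASN and are then elongated and desaturated. 10 of 15 such genes fell in Plasmax and 1 rose, with a median of −0.65. The falls were largest in the desaturases. FADS2, which starts the desaturation of polyunsaturated fatty acids, had 5.97, 8.72 and 5.79 CPM in Plasmax, against 77.4, 47 and 63.7 CPM in EMEM (log2 fold change −3.19, SE 0.31, edgeR adjusted p = 1.17e-06). FADS1, the second desaturase of that route, had 45.3, 43 and 34.9 CPM in Plasmax, against 239.6, 193 and 228 CPM in EMEM (log2 fold change −2.42, SE 0.16, edgeR adjusted p = 3e-08). SCD, which makes monounsaturated fatty acids, had 409.7, 349 and 358 CPM in Plasmax, against 1199, 1257 and 1274 CPM in EMEM (log2 fold change −1.74, SE 0.11, edgeR adjusted p = 2.89e-08). All 3 were lower in each Plasmax library than in any EMEM library. The synthase FASN fell by less, with 508, 485 and 487 CPM in Plasmax, against 981, 829 and 806 CPM in EMEM (log2 fold change −0.82, SE 0.18, edgeR adjusted p = 0.00349). The elongase ELOVL6 (−0.79), the citrate lyase ACLY (−0.82) and the carboxylase ACACA (−0.62) moved by a like amount, and the acetate-activating enzyme ACSS2 fell by more (−1.34). SLC25A1, the carrier that brings citrate out of mitochondria for lipid synthesis, fell (−1.88). ACACA lost its call in 5 of 19 alternative settings, among them the fits without Plasmax 2, Plasmax 3, EMEM 1 or EMEM 2 (adjusted p up to 0.0725 over all settings). The member that rose was the acyl-CoA synthetase ACSL1 (0.84). ACSL1 lost its call in 5 of 19 alternative settings, among them the fits without Plasmax 1, Plasmax 2, EMEM 2 or EMEM 3 (adjusted p up to 0.114 over all settings).

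Genes of fatty acid oxidation were divided. CPT1A, the carnitine transferase that admits long fatty acids to mitochondria, had 187, 133 and 160.0 CPM in Plasmax, against 48.5, 49.3 and 50.3 CPM in EMEM (log2 fold change 1.69, SE 0.15, edgeR adjusted p = 3.77e-07). PPARGC1A, a coactivator of mitochondrial and fasting genes, had 34, 33.9 and 32.9 CPM in Plasmax, against 15.8, 9.08 and 10.1 CPM in EMEM (log2 fold change 1.54, SE 0.26, edgeR adjusted p = 0.000408). FABP1, the liver fatty acid binding protein, had 164, 121 and 146 CPM in Plasmax, against 613, 653 and 787 CPM in EMEM (log2 fold change −2.25, SE 0.17, edgeR adjusted p = 7.33e-08). Both rises and the fall of FABP1 were without overlap. The peroxisomal enzyme EHHADH (−1.46), the thiolase ACAA2 (−0.98) and the thioesterase ACOT2 (−1.09) also fell, and 3 of 16 members rose against 5 that fell. The oxidation enzymes ACADM (−0.06) and HADHA (0.10) were not called. The thiolase subunit HADHB was the remaining rise (0.43). HADHB lost its call in 5 of 19 alternative settings, among them the fits without Plasmax 1, Plasmax 3, EMEM 2 or EMEM 3 (adjusted p up to 0.0769 over all settings).

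Of 16 genes of triglyceride synthesis and lipid droplets 1 rose and 2 fell, which is near the share of all genes called. MTTP, which loads triglyceride onto apolipoprotein B, fell (log2 fold change −1.24, SE 0.13, edgeR adjusted p = 2.18e-06), while the droplet coat gene PLIN2 (0.58) and the lipase gene PNPLA2 (0.54) were not called. G0S2, an inhibitor of that lipase and a choice made after seeing its values, had 160 reads in the 3 Plasmax libraries and 0 in the 3 EMEM libraries. That is at least 51.6-fold higher in Plasmax when EMEM is set to a floor of 3 reads over the medium. Such bounds, here and below, cover only counting error in the medium without reads. They take the other count as observed and leave out variation between libraries. It was at 10.9, 15.4 and 5.37 CPM in Plasmax, beside 0, 0 and 0 CPM in LGDMEM and a mean of 0.125 CPM in HGDMEM.

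Cell division needs factors that license and copy DNA and, later, a set of kinases, cyclins and kinetochore proteins. The replication genes are switched on by E2F factors in late G1, and the mitotic genes by a complex that includes MYBL2 and FOXM1 and docks at the cell cycle homology region of their promoters. Both classes fell in Plasmax almost throughout. Among replication genes 30 of 35 fell and 0 rose, with a median of −1.35, and among mitotic genes 33 of 37 fell and 0 rose, with a median of −1.41. As these were bulk libraries, fewer dividing cells and less of these RNAs per cell cannot be told apart.

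CDT1, which loads the replicative helicase onto origins, had 15, 13.8 and 20.5 CPM in Plasmax, against 109, 88.5 and 103 CPM in EMEM (log2 fold change −2.61, SE 0.23, edgeR adjusted p = 3.77e-07). MCM2, a subunit of that helicase, had 78.7, 58.4 and 48.4 CPM in Plasmax, against 262, 237 and 272 CPM in EMEM (log2 fold change −2.06, SE 0.22, edgeR adjusted p = 3.92e-06). TK1, the thymidine kinase of S phase, had 14, 18.2 and 10.5 CPM in Plasmax, against 123, 75.1 and 33.9 CPM in EMEM (log2 fold change −2.43, SE 0.47, edgeR adjusted p = 0.00119). None of the 3 overlapped between media. Smaller falls were seen in the sliding clamp PCNA (−1.17), the ribonucleotide reductase subunit RRM2 (−1.69) and the thymidylate synthase TYMS (−0.98). The members not called were POLD1 (−1.27), RFC2 (−1.20), POLA1 (−0.78), PRIM1 (−0.71) and the maintenance methyltransferase DNMT1 (−0.07), all chosen after their values were seen. Of these only DNMT1 was near 0.

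MKI67, the proliferation marker Ki-67, had 15.2, 13.5 and 18.2 CPM in Plasmax, against 51.2, 50.0 and 42.5 CPM in EMEM (log2 fold change −1.62, SE 0.24, edgeR adjusted p = 9.45e-05). CDC20, an activator of the anaphase-promoting complex, had 45.7, 44.9 and 34.5 CPM in Plasmax, against 194, 96.8 and 179 CPM in EMEM (log2 fold change −1.90, SE 0.29, edgeR adjusted p = 0.000126). TOP2A, the topoisomerase that untangles chromosomes, had 76.6, 98.4 and 99.8 CPM in Plasmax, against 274, 210.2 and 283 CPM in EMEM (log2 fold change −1.48, SE 0.16, edgeR adjusted p = 4.54e-06). In each the Plasmax libraries lay below all EMEM libraries. Of 25 measured kinesin genes 9 fell and 1 rose. The falls included the spindle motors KIF20A (−1.70), KIF2C (−1.71) and KIF18B (−1.58). The rise was in KIF13A, with a log2 fold change of 0.73 to 0.80 over the alternative settings. The transport kinesins KIF5B (−0.20), KIF3A (−0.10) and KIF1B (0.32), chosen after their values were seen, were not called. The number of kinesin genes that fell was 5 without Plasmax 3, without EMEM 1 or without EMEM 3.

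Promoters of both classes often held a known motif, as counted in the same RefSeq windows. TTTGAA, the cell cycle homology region, was found on either strand in 17 of 30 mitotic promoters (56.7%), against 9.47% of the promoters of genes tested and 15.4% of all promoters. TTTNNCGC is a loose form of the E2F site, as N stands for any base, and a stricter form was not searched. It was found on either strand in 21 of 32 replication promoters (65.6%), against 11.0% and 6.90%. Each motif was rare in the other class, with TTTGAA in 1 of 32 replication promoters and TTTNNCGC in 2 of 30 mitotic ones. A match overlapped another of the motifs searched in 1 promoter of each set. The windows below place each motif in the called genes with the smallest p, with 1 match in capitals as above. The first 4 are mitotic genes with TTTGAA or its complement TTCAAA, and the last 4 replication genes with TTTNNCGC or its complement.
PLK1: ccagcgccgcgTTTGAAttcggggagga
TOP2A: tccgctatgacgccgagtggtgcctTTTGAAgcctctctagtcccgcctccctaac
MKI67: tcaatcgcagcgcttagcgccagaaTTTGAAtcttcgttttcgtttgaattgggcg
CDC20: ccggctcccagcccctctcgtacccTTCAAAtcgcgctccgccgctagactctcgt
CDT1: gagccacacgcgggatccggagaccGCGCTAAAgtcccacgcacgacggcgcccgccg
MCM2: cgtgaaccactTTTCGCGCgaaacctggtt
CDC6: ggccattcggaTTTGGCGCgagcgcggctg
GINS2: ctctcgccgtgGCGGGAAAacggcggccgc
In GRCh38.p14 they lie at chr16:23678849-23678876, chr17:40418060-40418115 (minus strand), chr10:128126440-128126495 (minus strand), chr1:43358778-43358833, chr16:88803551-88803608, chr3:127598402-127598431, chr17:40287875-40287904 and chr16:85688967-85688996 (minus strand). PLK1, the polo kinase of mitosis, had a log2 fold change of −1.41, the licensing factor CDC6 −2.11 and the helicase partner GINS2 −1.93.

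Entry into S phase is held back by inhibitors of cyclin-dependent kinases, and 3 of them rose. CDKN2B, the inhibitor p15 of CDK4 and CDK6, had 43.9, 42.3 and 59.9 CPM in Plasmax, against 2.67, 6.94 and 5.05 CPM in EMEM (log2 fold change 3.28, SE 0.45, edgeR adjusted p = 4.65e-05). CDKN2A, whose locus gives p16 and p14ARF, had 172, 152 and 188 CPM in Plasmax, against 27.4, 40.0 and 25.5 CPM in EMEM (log2 fold change 2.46, SE 0.18, edgeR adjusted p = 7.23e-08). CDKN1A, the inhibitor p21, had 268, 188 and 252 CPM in Plasmax, against 75.7, 73.7 and 93.6 CPM in EMEM (log2 fold change 1.54, SE 0.16, edgeR adjusted p = 2.55e-06). No Plasmax library of these genes reached down to an EMEM library. Reads at the 3′ end do not separate the products of CDKN2A. CDKN1B, the inhibitor p27, was not called, with 46.5, 34.5 and 33.1 CPM in Plasmax, against 44.7, 60.5 and 44.8 CPM in EMEM (log2 fold change −0.40, SE 0.20, edgeR adjusted p = 0.179). CDKN2C, the inhibitor p18, fell (−2.10), as did the factor E2F1 (−1.38), the ligase subunit SKP2 (−1.88), CDK2 (−1.06) and cyclin E1, CCNE1 (−1.03). CCNE1 lost its call in 1 of 19 alternative settings, namely in the fit without EMEM 1 (adjusted p up to 0.0541 over all settings). CDK6 (0.95) and the D-type cyclin CCND2 (2.90, or 3.55 without EMEM 1, chosen after its values were seen) rose, while CCND1 (0.24) and MYC (0.22) were not called. In all, 6 of 23 G1 genes rose and 8 fell.

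Of 26 targets of p53, 10 rose and 0 fell, with a median of 0.52. Besides CDKN1A they included TP53INP1, a stress-induced autophagy gene, with 34.4, 32.8 and 38.4 CPM in Plasmax, against 10.4, 20.3 and 16 CPM in EMEM (log2 fold change 1.16, SE 0.23, edgeR adjusted p = 0.00152). MDM2, the ligase that degrades p53, had 279, 256 and 294 CPM in Plasmax, against 193, 202 and 172 CPM in EMEM (log2 fold change 0.55, SE 0.13, edgeR adjusted p = 0.00493). Neither gene overlapped between media. The death genes BAX (0.33) and FAS (0.92) and the growth arrest genes BTG2 (0.34) and CCNG1 (−0.42) were not called.

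Histone genes were divided between 5 that rose and 6 that fell of 22 measured. H1F0, a linker histone of resting cells, had 1807, 2672 and 1924 CPM in Plasmax, against 949, 1103 and 916 CPM in EMEM (log2 fold change 1.11, SE 0.15, edgeR adjusted p = 4.55e-05). HIST1H2AC, a clustered histone gene with polyadenylated transcripts, had 40.2, 34.7 and 23.8 CPM in Plasmax, against 4.13, 3.38 and 4.63 CPM in EMEM (log2 fold change 3.02, SE 0.53, edgeR adjusted p = 0.000493). H2AFX, the variant phosphorylated at DNA breaks, had 17.1, 16.1 and 13.2 CPM in Plasmax, against 64.6, 40.8 and 48.4 CPM in EMEM (log2 fold change −1.72, SE 0.23, edgeR adjusted p = 4.65e-05). The media were separate in all 3, with Plasmax above EMEM in the first pair and below it in H2AFX. HIST2H2BE (2.61) and HIST1H1C (1.69) rose, and HIST1H2AJ (−2.71) and H2AFV (−0.68) fell. Many clustered histone genes are near-identical copies, and most of their transcripts lack the poly(A) tail on which the libraries depend. Counts of clustered histone genes are therefore less certain than others.

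**Figure D3:**
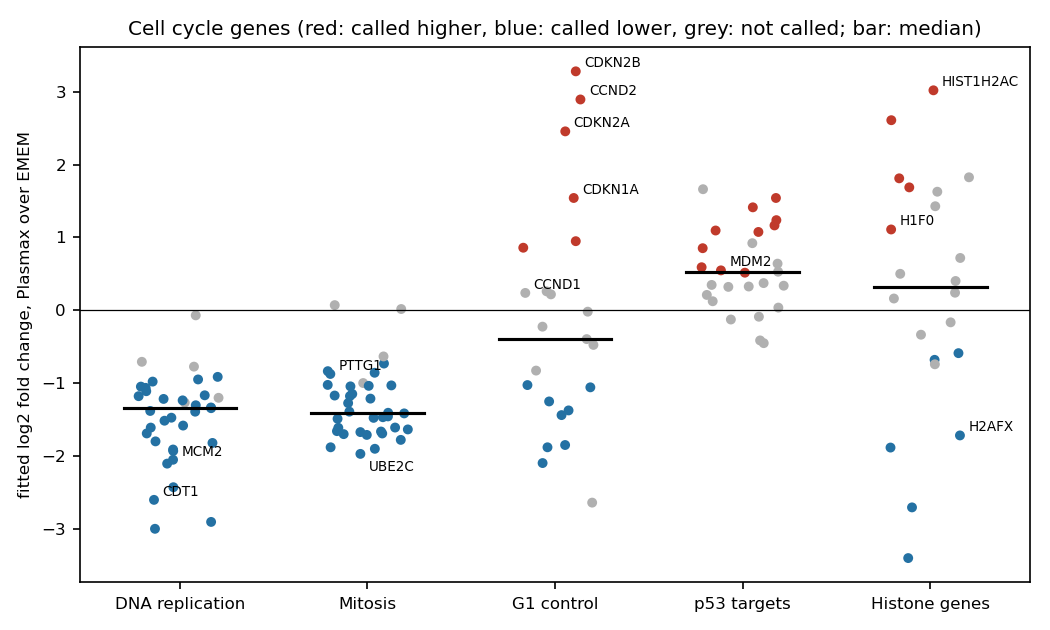
Fitted log2 fold change (Plasmax over EMEM) of every measured member of 5 gene groups, 1 point per gene, with bars at the medians. Replication and mitotic genes lie almost wholly below 0, G1 genes spread to both sides with CDKN2B, CCND2 and CDKN2A at the top, and p53 targets lie mostly above 0.

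When amino acids run short or proteins misfold, translation is slowed and the factor ATF4 is made from a preexisting message; it then switches on genes of amino acid synthesis, uptake and tRNA charging together with feedback regulators and secreted hormones. In Plasmax 14 of 21 such effectors rose and 0 fell, with a median of 1.18. ATF4 itself is controlled mainly in translation, and its RNA was not called, with 1972, 2108 and 1684 CPM in Plasmax, against 1685, 2279 and 1842 CPM in EMEM (log2 fold change −0.01, SE 0.13, edgeR adjusted p = 0.968). Its libraries overlapped between the media. DDIT3 (0.25), ATF3 (0.94) and TRIB3 (0.66) were not called. TRIB3, a pseudokinase that feeds back on ATF4, had 95.2, 104 and 70.7 CPM in Plasmax, against 32, 63.4 and 74.9 CPM in EMEM.

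SESN2, a leucine sensor that restrains mTORC1, had 77, 62.4 and 65.5 CPM in Plasmax, against 18.7, 28.7 and 21.7 CPM in EMEM (log2 fold change 1.56, SE 0.28, edgeR adjusted p = 0.000693). PPP1R15A, a phosphatase subunit that lifts the block on translation, had 57.5, 66.9 and 46.7 CPM in Plasmax, against 15.5, 22.4 and 23.4 CPM in EMEM (log2 fold change 1.47, SE 0.22, edgeR adjusted p = 0.00011). Both were higher in all 3 Plasmax libraries than in EMEM. The chromatin-linked stress gene NUPR1 (1.42) and the translation inhibitor EIF4EBP1 (1.20) rose too. CHAC1, which splits glutathione and is a choice made after seeing its values, had 61 reads in Plasmax and 0 in EMEM, at least 19.7-fold higher against the floor of 3 reads. CHAC1 was not called with DESeq2 (adjusted p = 0.0514). DDIT4, a brake on mTORC1, was called (1.04), but DDIT4 lost its call in 8 of 19 alternative settings, among them the fits without Plasmax 1, Plasmax 2, Plasmax 3, EMEM 1 or EMEM 3 (adjusted p up to 0.164 over all settings).

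Several secreted members of the group rose. INHBE, which gives the liver hormone activin E, had 58.7, 64.5 and 70.9 CPM in Plasmax, against 3.64, 25.3 and 10.5 CPM in EMEM (log2 fold change 2.26, SE 0.48, edgeR adjusted p = 0.00247). STC2, stanniocalcin 2, had 550.4, 524 and 523 CPM in Plasmax, against 131, 234 and 203 CPM in EMEM (log2 fold change 1.49, SE 0.28, edgeR adjusted p = 0.00083). ANGPTL8, an inhibitor of lipoprotein lipase raised in liver by feeding, had 29.5, 19 and 22.9 CPM in Plasmax, against 2.67, 3.38 and 6.52 CPM in EMEM (log2 fold change 2.49, SE 0.39, edgeR adjusted p = 0.000192). The media did not overlap in any of them. GDF15, a hormone that curbs appetite, had 2819.9, 2664 and 2655 CPM in Plasmax, against 880.4, 1709 and 1273 CPM in EMEM (log2 fold change 1.07, SE 0.28, edgeR adjusted p = 0.0107). GDF15 lost its call in 2 of 19 alternative settings, among them the fit without EMEM 1 (adjusted p up to 0.0655 over all settings). Without EMEM 2 the log2 fold change of INHBE was 3.17. In the other media GDF15 had 1572, 5042 and 2720.2 CPM in LGDMEM and a mean of 1281 CPM in HGDMEM. INHBE had 12.9, 51.3 and 64.1 CPM in LGDMEM and a mean of 13.6 CPM in HGDMEM. Against the mean of LGDMEM and HGDMEM, the log2 fold changes were 1.42 for INHBE, 0.97 for STC2, 0.44 for GDF15 and 0.35 for ANGPTL8. In that contrast, which shares the Plasmax libraries, GDF15 and ANGPTL8 were not called (edgeR adjusted p = 0.178 and 0.394). ANGPTL8 had a mean of 19.2 CPM in HGDMEM. The growth factor IGF2 (2.52) and the lipoprotein receptor VLDLR (3.96), both chosen after their values were seen, were the other large rises, and without EMEM 2 IGF2 was at 3.79.

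The enzymes that charge tRNAs in the cytosol rose in 9 of 20 cases and fell in 1. MARS, for methionine, had 281, 264 and 308 CPM in Plasmax, against 89.6, 140.4 and 97.4 CPM in EMEM (log2 fold change 1.38, SE 0.19, edgeR adjusted p = 4.02e-05). CARS, for cysteine, had 155, 138 and 139 CPM in Plasmax, against 51, 82.4 and 58.9 CPM in EMEM (log2 fold change 1.16, SE 0.19, edgeR adjusted p = 0.000271). SARS, for serine, had 72.9, 60.7 and 61.6 CPM in Plasmax, against 27.4, 33.1 and 29 CPM in EMEM (log2 fold change 1.12, SE 0.23, edgeR adjusted p = 0.00168). Their libraries were separate between media. The enzymes for glycine, GARS (1.11), and asparagine, NARS (1.00), rose, whereas those for alanine, AARS (0.26), isoleucine, IARS (0.16), and tryptophan, WARS (0.87), were not called. QARS, for glutamine, fell (−0.53). QARS lost its call in 7 of 19 alternative settings, among them the fits without Plasmax 2, Plasmax 3, EMEM 1, EMEM 2 or EMEM 3 (adjusted p up to 0.183 over all settings).

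TGATGNAA, the composite element bound by C/EBP and ATF factors, was found on either strand in 6 of 16 synthetase promoters (37.5%) and in 3 of 15 promoters of the stress effectors (20%), against 1.53% of the promoters of genes tested and 3.67% of all promoters, and no match overlapped another motif. It was in 3 of 16 promoters of amino acid transporters. Of the 6 synthetases with a match, CARS, MARS, NARS and TARS rose, and AARS and IARS were not called. The element is shown in the 4 synthetases that rose and in ANGPTL8, under the present symbols of the synthetases (NARS1, MARS1, CARS1 and TARS1), with the match in capitals.
NARS1: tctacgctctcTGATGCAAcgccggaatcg
MARS1: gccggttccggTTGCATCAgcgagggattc
CARS1: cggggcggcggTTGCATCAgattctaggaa
TARS1: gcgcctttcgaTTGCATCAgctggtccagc
ANGPTL8: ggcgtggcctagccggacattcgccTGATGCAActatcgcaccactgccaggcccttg
In GRCh38.p14 they lie at chr18:57621804-57621833 (minus strand), chr12:57488053-57488082, chr11:3057407-3057436 (minus strand), chr5:33440956-33440985 and chr19:11239468-11239525. All of these windows hold TGATGCAA or its complement TTGCATCA. TARS, for threonine and chosen after its values were seen, had a log2 fold change of 0.67. TARS lost its call in 2 of 19 alternative settings, among them the fit without EMEM 1 (adjusted p up to 0.0661 over all settings).

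Transporters of amino acids rose in 8 of 20 cases and fell in 1. SLC7A11, which imports cystine, had 494, 580.1 and 489 CPM in Plasmax, against 74, 149 and 113 CPM in EMEM (log2 fold change 2.22, SE 0.26, edgeR adjusted p = 8.71e-06). SLC38A1, a glutamine carrier, had 86.3, 99.5 and 99.6 CPM in Plasmax, against 33.3, 48.1 and 28.6 CPM in EMEM (log2 fold change 1.37, SE 0.21, edgeR adjusted p = 0.000139). Both were higher in every Plasmax library. The cationic carrier SLC7A1 (1.06) and the neutral carriers SLC1A4 (0.73) and SLC1A5 (0.87) rose, while the leucine carrier SLC7A5 (0.18) and the starvation-induced SLC38A2 (0.41) were not called. Serine and one-carbon genes moved in both directions. PHGDH, the first enzyme of serine synthesis, had 322, 336 and 252 CPM in Plasmax, against 126, 135 and 187 CPM in EMEM (log2 fold change 1.03, SE 0.17, edgeR adjusted p = 0.000398). CTH, which makes cysteine from cystathionine, had 64.7, 54.6 and 56.2 CPM in Plasmax, against 10.9, 21.7 and 11.4 CPM in EMEM (log2 fold change 1.98, SE 0.37, edgeR adjusted p = 0.000914), and these groups did not overlap either. The mitochondrial folate enzymes MTHFD2 (0.99) and MTHFD1L (1.23) rose. The cytosolic folate enzymes SHMT1 (−0.78) and ALDH1L1 (−2.22) fell, as did ALDH18A1 of proline synthesis (−0.67). Of 21 genes of this group 8 rose and 5 fell. The number that fell was 3 without Plasmax 3.

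Chaperones of the endoplasmic reticulum are raised through XBP1 and ATF6. Of 20 members 7 fell and 0 rose. The cause of these changes, or of those in the amino acid genes, was not tested. CALR, the calcium-binding chaperone calreticulin, had 526, 446 and 442 CPM in Plasmax, against 1123, 975 and 1054 CPM in EMEM (log2 fold change −1.16, SE 0.16, edgeR adjusted p = 5.63e-05). MANF, a secreted stress protein of the compartment, had 105, 71.8 and 86.8 CPM in Plasmax, against 174, 198 and 231 CPM in EMEM (log2 fold change −1.20, SE 0.26, edgeR adjusted p = 0.00257). Both were lower in every Plasmax library. The main chaperone HSPA5, known as BiP, was called lower (log2 fold change −0.84, SE 0.29, edgeR adjusted p = 0.0407), but HSPA5 lost its call in 9 of 19 alternative settings, among them the fits without Plasmax 1, Plasmax 2, Plasmax 3, EMEM 1, EMEM 2 or EMEM 3 (adjusted p up to 0.134 over all settings). HSP90B1 (−0.22), HYOU1 (−0.04) and DNAJB9 (0.32) were not called. Of 15 heat shock genes, which act in the cytosol and mitochondria, 1 rose and 4 fell. HSPB1, a small heat shock protein, had 769.7, 646 and 643 CPM in Plasmax, against 1319, 1398 and 1240.5 CPM in EMEM (log2 fold change −0.94, SE 0.13, edgeR adjusted p = 5.95e-05). The stress-induced HSPA1A (0.44), DNAJB1 (−0.10) and HSPH1 (0.40) were not called, and HSPA1A shares reads with the near-identical HSPA1B.

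TXNIP and its relative ARRDC4 are arrestins that hold glucose transporters inside the cell. Both are switched on by the glucose-sensing pair MondoA or ChREBP with MLX, and FOXO factors, which insulin keeps out of the nucleus, act on genes such as TXNIP and KLHL24. TXNIP had 282, 282 and 330.3 CPM in Plasmax, against 57, 20.3 and 34.1 CPM in EMEM (log2 fold change 3.02, SE 0.31, edgeR adjusted p = 1.91e-06). ARRDC4 had 8.03, 4.93 and 10.3 CPM in Plasmax, against 0.243, 0 and 0 CPM in EMEM, from 115 reads in Plasmax and 1 in EMEM (edgeR adjusted p = 0.000957). TSC22D3, also known as GILZ and induced by glucocorticoids and FOXO factors, had 23.7, 27.9 and 22.3 CPM in Plasmax, against 3.16, 1.07 and 0.841 CPM in EMEM (log2 fold change 3.90, SE 0.59, edgeR adjusted p = 0.000145). None overlapped between the media. Without EMEM 1 the log2 fold change of TSC22D3 was 4.64. In the other media TXNIP had 1.01, 5.5 and 4.53 CPM in LGDMEM and a mean of 41.7 CPM in HGDMEM. ARRDC4 had 0, 0 and 0 CPM in LGDMEM and a mean of 0.221 CPM in HGDMEM. The pseudokinase TRIB1 (1.34) and the DNA damage gene GADD45A (1.09) rose, while the insulin-repressed liver genes IGFBP1 (0.76) and PCK1 (0.15) and the FOXO targets CCNG2 (−0.04), SESN1 (−0.13) and BCL6 (0.03) were not called. Of 21 genes of this group 8 rose and 1 fell, with a median of 0.76. KLHL24 was among the rises (1.63). KLHL24 lost its call in 3 of 19 alternative settings, among them the fits without EMEM 1 or EMEM 3 (adjusted p up to 0.0613 over all settings).

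Of 15 glucocorticoid receptor targets 6 rose and 1 fell, and without EMEM 1 the number that rose was 2. Besides TSC22D3, the rises included the acute phase gene ORM1 (3.55), the EGF receptor inhibitor ERRFI1 (0.94) and the transcription factor KLF9 (0.93). ERRFI1 lost its call in 2 of 19 alternative settings, among them the fit without EMEM 1 (adjusted p up to 0.0739 over all settings). KLF9 lost its call in 2 of 19 alternative settings, among them the fit without EMEM 1 (adjusted p up to 0.0676 over all settings). FKBP5, a chaperone cofactor of the receptor, had 40.0, 30.7 and 30.0 CPM in Plasmax, against 48.8, 40.2 and 27.6 CPM in EMEM (log2 fold change −0.21, SE 0.22, edgeR adjusted p = 0.555), and PER1 (−0.38), DUSP1 (0.59) and TAT (−0.37) were not called. SGK1, a kinase induced by glucocorticoids and serum, had 8.65, 10.2 and 3.93 CPM in Plasmax, against 29.9, 27.4 and 21.2 CPM in EMEM (log2 fold change −1.77, SE 0.34, edgeR adjusted p = 0.00101), lower in all Plasmax libraries.

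Glycolysis turns glucose into pyruvate, which is reduced to lactate or carried into mitochondria. Of 24 genes of glucose uptake, glycolysis and lactate 9 fell and 1 rose. The glucose transporter SLC2A3 had 114, 131 and 132 CPM in Plasmax, against 250.0, 299 and 259 CPM in EMEM (log2 fold change −1.10, SE 0.19, edgeR adjusted p = 0.00052). SLC16A3, a lactate exporter, had 99.3, 93.3 and 99.2 CPM in Plasmax, against 168, 174 and 212 CPM in EMEM (log2 fold change −0.92, SE 0.18, edgeR adjusted p = 0.00119). MPC2, a subunit of the carrier that brings pyruvate into mitochondria, had 38.3, 21.2 and 27.9 CPM in Plasmax, against 52.9, 52.7 and 74.3 CPM in EMEM (log2 fold change −1.04, SE 0.21, edgeR adjusted p = 0.00147). Plasmax lay below EMEM in every library of these genes. The partner subunit MPC1 (−0.66), the pyruvate dehydrogenase subunit PDHB (−0.55) and SLC37A4, which moves glucose 6-phosphate into the endoplasmic reticulum (−1.24), fell. The liver glucose transporter SLC2A2 (0.23) and the glycolytic enzymes GAPDH (−0.50), ENO1 (0.24), PKM (−0.29) and HK2 (0.32) were not called. SLC2A1 rose (0.55). SLC2A1 lost its call in 7 of 19 alternative settings, among them the fits without Plasmax 1, Plasmax 2, Plasmax 3, EMEM 1 or EMEM 3 (adjusted p up to 0.178 over all settings). LDHA, which makes lactate, fell (−0.80). LDHA lost its call in 9 of 19 alternative settings, among them the fits without Plasmax 1, Plasmax 2, Plasmax 3, EMEM 1, EMEM 2 or EMEM 3 (adjusted p up to 0.14 over all settings). The number of members that fell was 5 without Plasmax 1 or without EMEM 3, and 14 in a fit to the 6 libraries alone.

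MLXIPL, the gene of ChREBP, had 105, 111 and 139.5 CPM in Plasmax, against 176, 331 and 242 CPM in EMEM (log2 fold change −1.08, SE 0.36, edgeR adjusted p = 0.0383). MLXIPL lost its call in 8 of 19 alternative settings, among them the fits without Plasmax 1, Plasmax 2, Plasmax 3, EMEM 2 or EMEM 3 (adjusted p up to 0.156 over all settings). PC (0.92) and PCK2 (0.60), enzymes that feed pyruvate towards glucose, were not called. Among targets of hypoxia-inducible factors 3 of 21 rose and 5 fell, or 0 and 3 without Plasmax 2 and 1 and 5 without Plasmax 1 or EMEM 3. EPO, the hormone erythropoietin that HepG2 cells make under hypoxia, had 0, 1.52 and 0.827 CPM in Plasmax, against 5.34, 9.08 and 7.78 CPM in EMEM (log2 fold change −3.19, SE 0.56, edgeR adjusted p = 0.000555, with a log2 fold change of −4.09 without Plasmax 2), and ADM (−0.23), NDRG1 (−0.26) and EGLN3 (2.16) were not called.

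Secretion of plasma proteins is a main task of hepatocytes and a property for which HepG2 is used. More carriers and apolipoproteins fell than rose in Plasmax. ALB, albumin, had 4624, 4196 and 3957 CPM in Plasmax, against 8194, 8717 and 8449 CPM in EMEM (log2 fold change −0.99, SE 0.10, edgeR adjusted p = 1.35e-06), the largest loss of CPM of any gene. AFP, the fetal albumin kept by liver tumours, had 1698, 2017 and 1664 CPM in Plasmax, against 5932, 5645 and 6256 CPM in EMEM (log2 fold change −1.73, SE 0.12, edgeR adjusted p = 5.04e-08). TTR, transthyretin, which carries thyroid hormone and retinol, had 242, 195 and 227 CPM in Plasmax, against 392, 491 and 553 CPM in EMEM (log2 fold change −1.11, SE 0.20, edgeR adjusted p = 0.000763). For each of the 3 the Plasmax libraries lay below EMEM. Of 16 carriers 8 fell and 4 rose, while RBP4 (−0.21), AHSG (0.02) and the haem carrier HPX (0.20) were not called. The elastase inhibitor SERPINA1 (0.57) and the adhesive protein vitronectin, VTN (1.03), rose. VTN lost its call in 6 of 19 alternative settings, among them the fits without Plasmax 2, Plasmax 3, EMEM 1, EMEM 2 or EMEM 3 (adjusted p up to 0.0975 over all settings). The number of carriers that rose was 2 without Plasmax 2, Plasmax 3 or any 1 of the EMEM libraries.

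The 9 hepatocyte markers summed to between 12260 and 13850 CPM in Plasmax and between 22400 and 22940 CPM in EMEM, with 6 of them lower and 1 higher. Markers of bile duct cells went the other way, with all 4 measured (KRT19, SOX9, EPCAM and SPP1) higher and sums of 1096 to 1102 CPM in Plasmax against 626 to 725 CPM in EMEM. KRT7 was not among the rows. The 3 measured leukocyte markers (CD68, LYZ and CD14) summed to 1966 to 2193 CPM in Plasmax and 2657 to 3294 CPM in EMEM, and the 3 measured stromal markers (COL1A1, PDGFRB and ACTA2) to 69.4 to 94.9 CPM in Plasmax and 43.9 to 59.5 CPM in EMEM. The part of these shifts in the levels of plasma protein genes was not tested.

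Among the listed apolipoproteins and genes that load or process lipoproteins 7 of 12 fell and 0 rose, with a median of −1.02. APOE, which was counted with the LXR targets and not here, rose (0.51). APOE lost its call in 5 of 19 alternative settings, among them the fits without Plasmax 1, Plasmax 2, EMEM 1 or EMEM 2 (adjusted p up to 0.0896 over all settings). APOA5, which speeds the breakdown of plasma triglyceride, had 13.4, 9.10 and 10.3 CPM in Plasmax, against 56.1, 46.5 and 57.4 CPM in EMEM (log2 fold change −2.28, SE 0.20, edgeR adjusted p = 3.29e-07). APOA2, another protein of HDL, had 3176, 3135 and 3194 CPM in Plasmax, against 5222, 5404 and 5822 CPM in EMEM (log2 fold change −0.79, SE 0.10, edgeR adjusted p = 2.17e-05). The libraries of the media were separate in both. APOC3, which slows that breakdown, fell by a log2 fold change of −1.28 and APOH by −1.17. APOB, the protein of LDL and VLDL, was not called, with 3439, 3319 and 3249.9 CPM in Plasmax, against 2952, 3042 and 2713 CPM in EMEM (log2 fold change 0.20, SE 0.10, edgeR adjusted p = 0.186). APOA1, the main protein of HDL, was called lower (−0.87). APOA1 lost its call in 6 of 19 alternative settings, among them the fits without Plasmax 1, Plasmax 3, EMEM 1 or EMEM 2 (adjusted p up to 0.175 over all settings).

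Genes of the acute phase, which interleukin 6 switches on in liver through STAT3, were partly higher. SERPINA3, an antichymotrypsin, had 49.6, 28.1 and 42.4 CPM in Plasmax, against 6.55, 14.1 and 10.3 CPM in EMEM (log2 fold change 1.94, SE 0.39, edgeR adjusted p = 0.00174). SOCS3, the feedback inhibitor of STAT3 signalling, had 24.1, 17.4 and 18 CPM in Plasmax, against 5.10, 2.85 and 1.47 CPM in EMEM (log2 fold change 2.67, SE 0.59, edgeR adjusted p = 0.00332). Both rose without overlap. The receptor IL6R (1.29) rose too, as did the factor CEBPB (0.76), while CEBPD (0.34) was not called. CEBPB lost its call in 2 of 19 alternative settings, among them the fit without EMEM 1 (adjusted p up to 0.0729 over all settings). HAMP, the iron hormone hepcidin and also a STAT3 target, had 8.03, 10.0 and 3.10 CPM in Plasmax, against 44.9, 47.9 and 40.0 CPM in EMEM (log2 fold change −2.64, SE 0.37, edgeR adjusted p = 5.92e-05). The list had 5 rises and 1 fall among 9 members. The fibrinogen chains FGA (0.07), FGB (−0.25) and FGG (−0.05) and prothrombin, F2 (0.26), were not called. 

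Complement genes rose in 4 of 18 cases and fell in 0. CD55, a membrane protein that shields cells from complement, had 38.5, 45.9 and 45.9 CPM in Plasmax, against 6.31, 14.2 and 11.4 CPM in EMEM (log2 fold change 2.01, SE 0.33, edgeR adjusted p = 0.000309). C5, which starts the membrane attack complex, had 185, 179.5 and 174 CPM in Plasmax, against 67.2, 94.2 and 74.9 CPM in EMEM (log2 fold change 1.19, SE 0.19, edgeR adjusted p = 0.000257). The media did not overlap in either. The shield protein CD59 rose by less (0.48), and C3 (0.95) and CFB (0.63), the central component and a protease of the alternative route, were not called.

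Of 22 liver transcription factors 3 fell and 1 rose. CEBPA, a factor of mature hepatocytes, had 88.4, 100.3 and 66.4 CPM in Plasmax, against 191, 129 and 204 CPM in EMEM (log2 fold change −1.04, SE 0.23, edgeR adjusted p = 0.00307), without overlap. HNF4A, which keeps hepatocyte identity, had 62.6, 66.7 and 57.5 CPM in Plasmax, against 90.8, 76.9 and 86.2 CPM in EMEM (log2 fold change −0.44, SE 0.16, edgeR adjusted p = 0.0493). HNF4A lost its call in 13 of 19 alternative settings, among them the fits without Plasmax 1, Plasmax 2, Plasmax 3, EMEM 1 or EMEM 3 (adjusted p up to 0.151 over all settings). PPARA, the fatty acid receptor of liver, was called lower (−0.74). PPARA lost its call in 14 of 19 alternative settings, among them the fits without Plasmax 1, Plasmax 2, Plasmax 3, EMEM 1, EMEM 2 or EMEM 3 (adjusted p up to 0.19 over all settings). Without Plasmax 2 or EMEM 1 the number of factors that fell was 1. Factors not called included FOXA2 (0.06), NR1H4 (−0.69) and NR0B2 (−0.52). Enzymes of drug and bile acid metabolism fell in 9 of 27 cases and rose in 2. CYP1A1, the cytochrome induced through the aryl hydrocarbon receptor, had 19.6, 31.5 and 14.1 CPM in Plasmax, against 2.43, 2.67 and 2.52 CPM in EMEM (log2 fold change 3.08, SE 0.54, edgeR adjusted p = 0.00053). SULT2A1, a sulphotransferase of steroids and bile acids, had 40.8, 26.7 and 30.2 CPM in Plasmax, against 138, 137 and 125 CPM in EMEM (log2 fold change −2.03, SE 0.16, edgeR adjusted p = 7.86e-08). Each was separate between the media, in opposite directions. GSTA1 (−3.95), AKR1C2 (−1.08) and CYP27A1 (−0.74) fell, and CYP3A5 (−2.19) and ABCC2 (0.31) were not called.

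Genes that handle metals and trace elements changed in part. Of 18 iron genes 7 fell and 0 rose, among them the transferrin receptor TFRC, which had 126, 128 and 139 CPM in Plasmax, against 306, 316 and 335 CPM in EMEM (log2 fold change −1.28, SE 0.11, edgeR adjusted p = 2.68e-07). Selenoproteins carry selenocysteine, and several of their messages are degraded when selenium is scarce. GPX1, a glutathione peroxidase of that kind, had 57.7, 57.6 and 64.7 CPM in Plasmax, against 35, 26.7 and 33 CPM in EMEM (log2 fold change 0.93, SE 0.17, edgeR adjusted p = 0.000912). SELENOW, another selenium-sensitive member, had 129, 114 and 130.0 CPM in Plasmax, against 37.4, 52.7 and 55.7 CPM in EMEM (log2 fold change 1.35, SE 0.18, edgeR adjusted p = 3.94e-05). GPX3, the secreted peroxidase, had 23.5, 27.1 and 34.9 CPM in Plasmax, against 122, 84.4 and 86.5 CPM in EMEM (log2 fold change −1.77, SE 0.19, edgeR adjusted p = 2.55e-06). The media were separate in all of these, and the direction differed between members. Of 20 members 5 rose and 6 fell. The thioredoxin reductase TXNRD1 rose (0.80), and the selenium carrier SELENOP (−0.94) and SEPHS2, which makes the selenium donor (−0.66), fell. The number that rose was 3 without Plasmax 3, EMEM 1 or EMEM 2.

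Metallothioneins bind zinc and copper and are raised by both metals. Of 14 metallothioneins and zinc carriers 6 fell and 1 rose. MT1G had 167, 211 and 164 CPM in Plasmax, against 1416, 720.4 and 1415 CPM in EMEM (log2 fold change −2.71, SE 0.34, edgeR adjusted p = 1.85e-05), a fall without overlap, and MT1F fell (−1.82). MT2A rose by a small factor from a high level, with 6467, 7959 and 6394 CPM in Plasmax, against 5616, 5058 and 5350.3 CPM in EMEM (log2 fold change 0.38, SE 0.13, edgeR adjusted p = 0.0419). MT2A lost its call in 8 of 19 alternative settings, among them the fits without Plasmax 1, Plasmax 2, Plasmax 3, EMEM 1, EMEM 2 or EMEM 3 (adjusted p up to 0.21 over all settings). Metallothionein genes resemble each other closely, which makes their reads hard to assign, and without EMEM 1 the number of members that fell was 3. The zinc exporter SLC30A1, itself a zinc-induced gene, had 72.7, 62.6 and 79.8 CPM in Plasmax, against 63.4, 54.6 and 52.6 CPM in EMEM and was not called (0.33). 

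The NRF2 pathway answers to oxidants and electrophiles. Besides SLC7A11 and TXNRD1, which other pathways also raise, GCLC, the first enzyme of glutathione synthesis, rose (0.68). The haem oxygenase HMOX1 (−0.28), GCLM (0.51) and AKR1B10 (−0.32) were not called, and AKR1C1 (−0.80) and the pentose phosphate enzyme TALDO1 (−0.75) fell. Of 24 members 4 rose and 6 fell. The number that fell was 3 without Plasmax 2 and 10 with DESeq2.

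Ligands of the EGF receptor stand among the most raised genes. AREG, the EGF receptor ligand amphiregulin, had 116, 135 and 162 CPM in Plasmax, against 14.3, 19.9 and 14.3 CPM in EMEM (log2 fold change 3.08, SE 0.26, edgeR adjusted p = 1.96e-07). EREG, another ligand, had 55 reads in Plasmax and 0 in EMEM, at least 17.8-fold higher against the floor of 3 reads. The Plasmax libraries of AREG lay far above EMEM, and AREG had 11.4, 20.1 and 8.38 CPM in LGDMEM and a mean of 8.55 CPM in HGDMEM. TGFA (0.59) and EGFR (0.19), another ligand and the receptor, were not called. EGR1, an immediate response gene of ERK signalling, had 40.2, 66.2 and 58.7 CPM in Plasmax, against 9.22, 23.1 and 12.6 CPM in EMEM (log2 fold change 1.86, SE 0.36, edgeR adjusted p = 0.00121). DUSP5, a nuclear phosphatase of ERK, had 46.8, 65 and 36.8 CPM in Plasmax, against 8.74, 8.54 and 1.68 CPM in EMEM (log2 fold change 2.97, SE 0.51, edgeR adjusted p = 0.000467). The libraries of the media were apart in both. The feedback genes DUSP6 (0.08), SPRY4 (0.12) and IER3 (0.29) and the factor FOSL1 (1.29) were not called, whereas JUN (0.83) and SPRED1 (0.75) rose. Of 24 members 8 rose and 0 fell.

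IL11, a cytokine of the interleukin 6 family, had 87.5, 80.9 and 113 CPM in Plasmax, against 11.7, 10.9 and 8.84 CPM in EMEM (log2 fold change 3.17, SE 0.28, edgeR adjusted p = 3.11e-07). SERPINE2, a secreted inhibitor of thrombin and urokinase, had 648, 645 and 678 CPM in Plasmax, against 78.6, 84.5 and 70.7 CPM in EMEM (log2 fold change 3.07, SE 0.22, edgeR adjusted p = 5.04e-08). CSTA, an inhibitor of cysteine proteases, had 88.2, 89.7 and 57.5 CPM in Plasmax, against 3.40, 6.23 and 2.31 CPM in EMEM (log2 fold change 4.26, SE 0.48, edgeR adjusted p = 6.14e-06). In each of the 3 all Plasmax values lay far above those in EMEM. In the other media IL11 had 21.2, 43.2 and 19.5 CPM in LGDMEM and a mean of 7.30 CPM in HGDMEM. SERPINE2 had 36.9, 56.6 and 65.2 CPM in LGDMEM and a mean of 50.8 CPM in HGDMEM. CSTA had 4.29, 4.52 and 18.6 CPM in LGDMEM and a mean of 5.40 CPM in HGDMEM. LGDMEM 3 was the highest LGDMEM library in SERPINE2 and CSTA and the lowest in IL11. Against the mean of LGDMEM and HGDMEM, a contrast that shares the Plasmax libraries and in which 30.2% of all genes were called, the log2 fold changes were 2.71, 3.66 and 3.49, beside 3.17, 3.07 and 4.26 against EMEM.

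**Figure D4:**
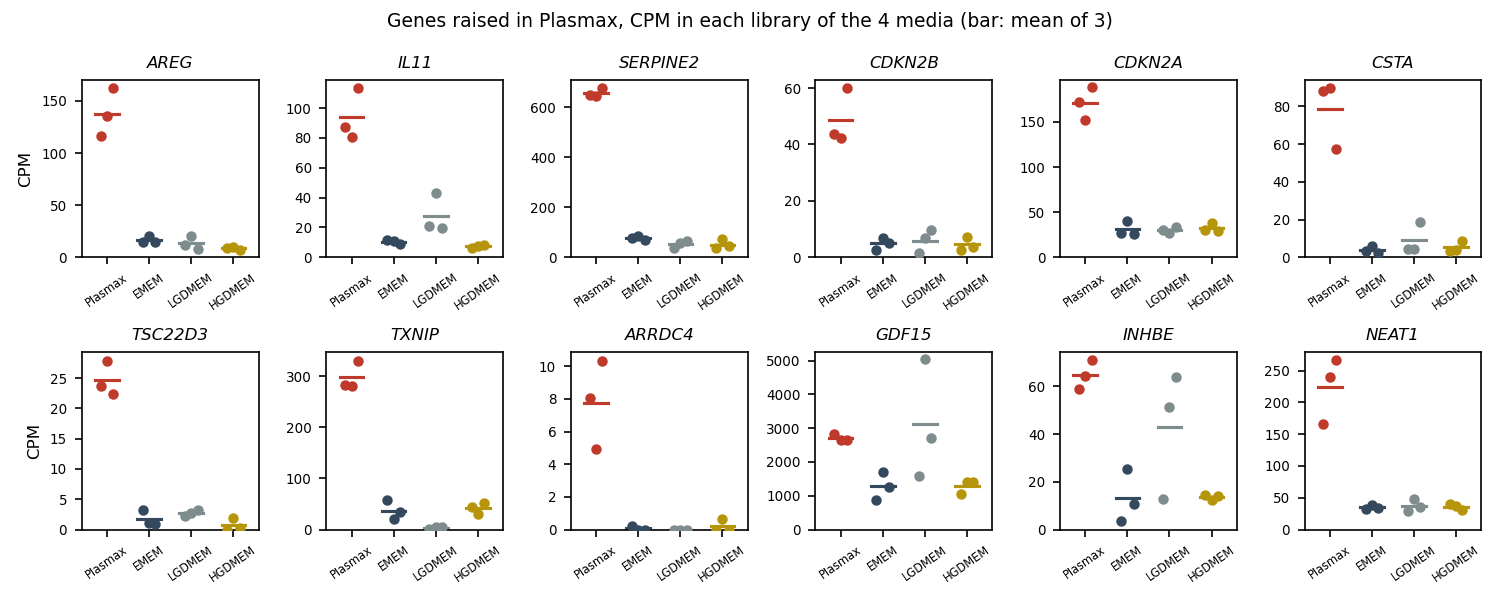
CPM of 12 genes that rose in Plasmax, in each library of Plasmax (red), EMEM (dark blue), LGDMEM (grey) and HGDMEM (ochre), with bars at the means. Every Plasmax library lies above all libraries of the other media in each panel but those of GDF15 and INHBE. In GDF15 and INHBE single LGDMEM libraries reach into or above the Plasmax range.

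Genes of epithelial structure and of attachment to the matrix rose in 15 of 26 cases and fell in 2, with a median of 0.69. Integrin chains bind matrix proteins outside the cell. ITGA1, a collagen-binding chain, had 88.4, 71.8 and 77.1 CPM in Plasmax, against 22.3, 21 and 18.9 CPM in EMEM (log2 fold change 1.93, SE 0.20, edgeR adjusted p = 1.86e-06). ITGA6, a laminin-binding chain, had 232, 250.4 and 249 CPM in Plasmax, against 110.0, 133 and 100.3 CPM in EMEM (log2 fold change 1.09, SE 0.12, edgeR adjusted p = 6.79e-06). FN1, fibronectin, a matrix protein that liver cells also secrete to plasma, had 7971, 6864 and 6981 CPM in Plasmax, against 4671, 5149 and 4369 CPM in EMEM (log2 fold change 0.62, SE 0.13, edgeR adjusted p = 0.00179). The Plasmax libraries were above EMEM in all 3. The collagen-binding chain ITGA2 (1.28) and the bile duct keratin KRT19 (0.94) rose as well, and so did ITGA3 (2.59) and the laminin chain LAMB3 (4.00, or 4.73 without EMEM 1), both chosen after their values were seen. The keratin KRT18 rose too, with a log2 fold change of 0.40 to 0.47 over the alternative settings. KRT18 lost its call in 2 of 19 alternative settings, among them the fit without EMEM 3 (adjusted p up to 0.0618 over all settings). The hepatocyte keratin KRT8 (−0.12) and E-cadherin, CDH1 (1.10), were not called, and the tight junction gene CLDN1 (−0.76) fell.

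Signals of the TGF-beta family pass through SMAD factors, with one branch for TGF-beta and activin and another for BMPs. Of 17 targets 7 rose and 4 fell. SKIL, a feedback gene of the TGF-beta branch, had 27.6, 30.7 and 34.1 CPM in Plasmax, against 14.3, 11.2 and 17.7 CPM in EMEM (log2 fold change 1.10, SE 0.26, edgeR adjusted p = 0.00461). ID1, a target of the BMP branch, had 296, 219 and 280.3 CPM in Plasmax, against 503, 537 and 507 CPM in EMEM (log2 fold change −0.96, SE 0.18, edgeR adjusted p = 0.00112). Neither overlapped between media, and the directions were opposite. PMEPA1 (3.58, or 4.53 without EMEM 3) and the receptor TGFBR2 (0.72) rose, ID3 (−1.30) fell, and ID2 (−0.28) and SMAD7 (0.79) were not called. The number that rose was 4 without Plasmax 3 or without EMEM 3. HepG2 cells carry an activated beta-catenin, and of 15 targets of that pathway 1 rose and 3 fell. AXIN2 (0.35), LGR5 (0.18), NKD1 (0.01), RNF43 (0.34) and ZNRF3 (0.25) were not called. DKK1, a secreted Wnt antagonist, had 15.2, 19.3 and 17.4 CPM in Plasmax, against 70.4, 59.5 and 66.1 CPM in EMEM (log2 fold change −1.91, SE 0.18, edgeR adjusted p = 5.66e-07). The YAP and SRF targets fell in 6 of 25 cases and rose in 1, with CYR61 (0.49), ACTB (−0.40) and VCL (−0.45) not called. That fall count was 2 without Plasmax 3 or EMEM 3 and 3 without any other Plasmax or EMEM library.

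Lysosomal and autophagy genes rose in 9 of 21 cases and fell in 2. CTSD, a lysosomal protease, had 150.4, 133 and 157 CPM in Plasmax, against 70.9, 80.5 and 85.4 CPM in EMEM (log2 fold change 0.89, SE 0.15, edgeR adjusted p = 0.000377). SQSTM1, the autophagy receptor p62, had 377, 396 and 394 CPM in Plasmax, against 238, 232 and 242 CPM in EMEM (log2 fold change 0.71, SE 0.13, edgeR adjusted p = 0.00061). Both were higher in every Plasmax library. CTSB (0.82), PSAP (0.76) and MAP1LC3B (0.96) rose too. Genes of the proteasome, the other route of protein breakdown, fell in 12 of 44 cases and rose in 0, with PSMD3 (−0.79), PSMC3 (−0.94) and PSMA2 (−0.83) among the falls and a median of −0.15.

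Called mitochondrial genes of the nucleus mostly fell, and the few called of the mitochondrial genome rose. The share called was 28.4% for mitochondrial ribosomal proteins, 16.7% for nuclear complex I subunits and 23.1% for mitochondrially encoded transcripts. Of all genes 22.1% were called, near the share of mitochondrially encoded transcripts, and of genes above the last quartile of level 36.3%. Mitochondrial ribosomal proteins fell in 19 of 74 cases and rose in 2, with MRPS15 (−1.22) and MRPL11 (−1.01) among the falls. That count was 12 without EMEM 1. Complex I subunits encoded in the nucleus fell in 6 of 36 cases, or 3 without Plasmax 2, and rose in 0. Of 13 mitochondrially encoded transcripts 3 rose and 0 fell. ND1, a complex I subunit from that genome, had 5789.6, 7081 and 7529 CPM in Plasmax, against 4516, 3399.9 and 4186 CPM in EMEM (log2 fold change 0.75, SE 0.14, edgeR adjusted p = 0.000746), without overlap. Among cytosolic ribosomal proteins 9 of 81 were higher and 2 lower, with a median of 0.09. The rises were near the share of all genes. These abundant genes summed to 136100 CPM in EMEM. The 13.6% of them called was below the 36.3% called of genes above the last quartile of level.

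Long non-coding RNAs rose in 7 of 13 cases and fell in 0. NEAT1, the scaffold of nuclear paraspeckles, had 165, 239 and 267 CPM in Plasmax, against 32.5, 38.8 and 34.5 CPM in EMEM (log2 fold change 2.66, SE 0.20, edgeR adjusted p = 7.33e-08), with Plasmax far above EMEM. MALAT1, a nuclear speckle RNA, had 81.8, 92.9 and 130.4 CPM in Plasmax, against 39.1, 36.7 and 47.5 CPM in EMEM (log2 fold change 1.31, SE 0.23, edgeR adjusted p = 0.000521). SNHG5, a snoRNA host transcript, rose (0.76), and GAS5, another host, was not called (0.38). Zinc finger genes of the ZNF series, a large family of mostly low expression, had 16 of 311 higher and 5 lower. That is 6.75% called, beside 22.1% of all genes and 10.3% of those below the first quartile of level. Without EMEM 1 or EMEM 3 the number higher was 10.

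Nucleotide synthesis gave few calls. Of 20 genes of purine and pyrimidine synthesis 0 rose and 1 fell, with a median of −0.01. Of 16 genes of the urea cycle and of amino acid breakdown 3 rose and 2 fell. BCAT1, which transfers nitrogen from branched-chain amino acids, had 339, 309.9 and 294 CPM in Plasmax, against 94.4, 118 and 109 CPM in EMEM (log2 fold change 1.55, SE 0.15, edgeR adjusted p = 9.87e-07). Polyamine genes rose in 4 of 10 cases and fell in 1. SAT1, which starts polyamine breakdown, had 328, 390.1 and 393 CPM in Plasmax, against 140.1, 191 and 171 CPM in EMEM (log2 fold change 1.14, SE 0.25, edgeR adjusted p = 0.00274). The libraries of the media were apart in BCAT1 and SAT1. The polyamine oxidase SMOX (1.05) and AZIN1, which shields the first enzyme of polyamine synthesis (0.91), rose, and that enzyme, ODC1 (0.31), was not called. 

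The remaining lists are given mainly by their counts. LXR targets had 1 higher and 1 lower of 11. Coagulation genes had 2 higher and 4 lower of 17, and 0 and 2 without Plasmax 1, Plasmax 3 or EMEM 1. CPB2, which slows the dissolving of clots, was among the falls (−1.06). Interferon and NF-kB targets had 1 higher and 5 lower of 20, and 1 to 3 lower without any 1 of the 6 libraries. IFIT1, an interferon-induced RNA-binding protein, was called lower (−3.31). IFIT1 lost its call in 7 of 17 alternative settings, among them the fits without Plasmax 1, Plasmax 2, EMEM 1, EMEM 2 or EMEM 3 (adjusted p up to 0.132 over all settings). Without Plasmax 3 the fitted log2 fold change of IFIT1 was −6.47. Mitochondrial carriers of the SLC25 family had 3 higher and 7 lower of 39, and 2 to 4 lower without Plasmax 1, Plasmax 3, EMEM 1 or EMEM 3. Among vacuolar ATPase subunits, which acidify lysosomes, 3 of 19 rose and 3 fell, and 1 rose without EMEM 1. Genes of glucose production and pyruvate entry, of which MPC1, MPC2, PDHB, SLC37A4 and MLXIPL are named above, had 0 higher and 5 lower of 13.

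**Figure D5:**
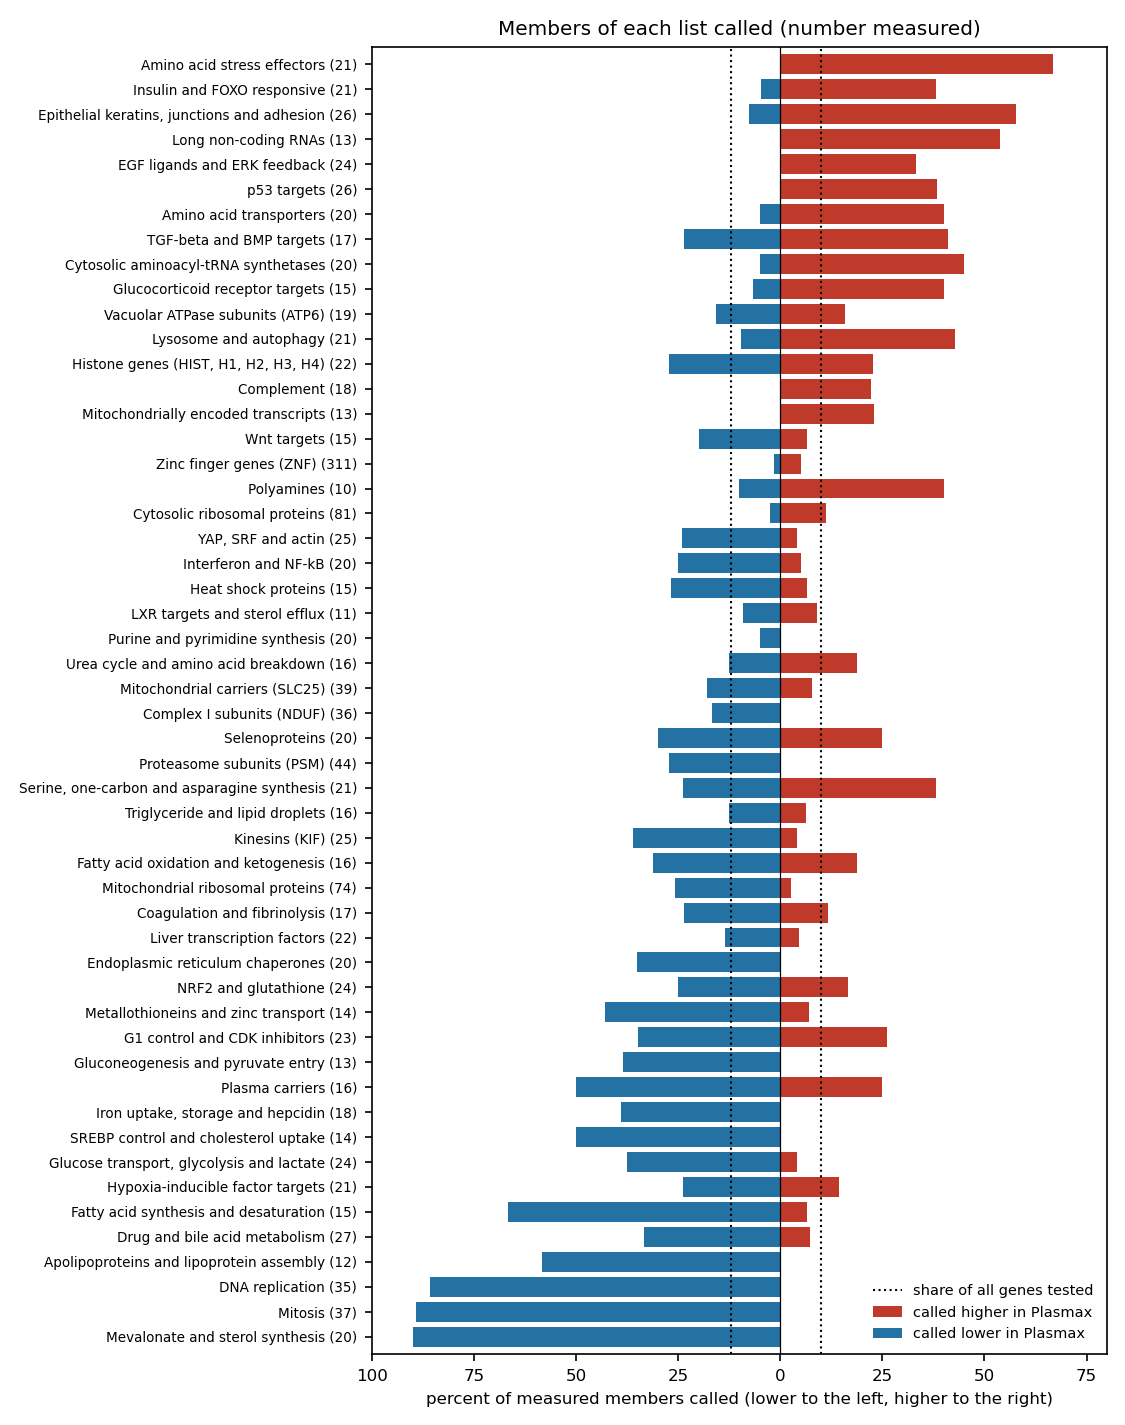
Percent of the measured members of each list or family that were called lower (blue, to the left) or higher (red, to the right) in Plasmax than in EMEM, ordered by the median log2 fold change, with the number measured in brackets. Dotted lines mark the 12.1% and 10.0% of all genes tested that fell and rose. Sterol synthesis, mitosis and DNA replication stand far to the left, and amino acid stress effectors and adhesion genes far to the right.

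Where the mean reached 10 CPM and the libraries did not overlap, several of the largest changes lay outside the groups above. PAQR5, a membrane receptor for progestins, had 17.7, 23.1 and 20.5 CPM in Plasmax, against 0, 1.78 and 0 CPM in EMEM (log2 fold change 4.89, SE 0.83, edgeR adjusted p = 0.000382). All 10 EMEM reads of PAQR5 were in EMEM 2, and the fitted log2 fold change was 9.63 without that library, a value that is no bound. LAIR2, a secreted collagen-binding receptor, had 16.5, 28.2 and 26.5 CPM in Plasmax, against 1.21, 1.78 and 2.10 CPM in EMEM (log2 fold change 3.77, SE 0.45, edgeR adjusted p = 1.07e-05). TMEM59L, a membrane glycoprotein, had 59.3, 56.5 and 50.0 CPM in Plasmax, against 3.88, 8.90 and 5.05 CPM in EMEM (log2 fold change 3.19, SE 0.37, edgeR adjusted p = 9.21e-06). All 3 were low in EMEM and higher in each Plasmax library. ORM1, an acute phase protein among the plasma carriers, had 331, 366 and 44.2 CPM in Plasmax, against 14.8, 27.4 and 20.4 CPM in EMEM, so Plasmax 3 was far lower than the other 2 Plasmax libraries, and it shares reads with the near-identical ORM2. On the other side, AP1M2, an adaptor subunit of epithelial sorting, had 5.56, 2.46 and 3.31 CPM in Plasmax, against 38.4, 19.9 and 35.1 CPM in EMEM (log2 fold change −3.04, SE 0.45, edgeR adjusted p = 0.000123). SFXN2, a carrier of the inner mitochondrial membrane, had 3.50, 3.03 and 3.10 CPM in Plasmax, against 28.4, 18.3 and 24 CPM in EMEM (log2 fold change −2.86, SE 0.29, edgeR adjusted p = 1.43e-06). Both were lower in every Plasmax library. LOC107987373, a locus without an assigned function, was called lower as well (−3.14). LOC107987373 lost its call in 5 of 19 alternative settings, among them the fits without Plasmax 1, Plasmax 2 or EMEM 1 (adjusted p up to 0.076 over all settings). Without Plasmax 3 the fitted log2 fold change of LOC107987373 was −5.01.

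In CPM, the genes that rose gained 68870 together while those that fell decreased by 99950. CPM are relative levels and these sums leave out genes that were not called, so they do not show a net loss of RNA. Single genes were ranked among called genes whose Plasmax and EMEM libraries did not overlap. There the largest gains after the mitochondrially encoded COX2 and ND1, FN1 and RPS12 were in MT2A, GDF15, H1F0 and APLP2, a relative of the amyloid precursor. APLP2 had 2304, 2211 and 2227 CPM in Plasmax, against 1319, 1327 and 1425 CPM in EMEM (log2 fold change 0.73, SE 0.10, edgeR adjusted p = 3.52e-05). In the same ranking, losses after ALB, AFP and APOA2 were led by PRDX1, a peroxiredoxin, which had 1949, 1821 and 1761 CPM in Plasmax, against 3895, 3596 and 3711 CPM in EMEM (log2 fold change −1.02, SE 0.11, edgeR adjusted p = 2.78e-06). PEG10, an imprinted gene of retroviral origin, had 1812, 1546 and 1689.6 CPM in Plasmax, against 3492, 3337 and 3228 CPM in EMEM (log2 fold change −0.99, SE 0.11, edgeR adjusted p = 3.72e-06). DHRS2, a short-chain dehydrogenase, had 2571, 2738 and 2476 CPM in Plasmax, against 4743, 3412 and 4562 CPM in EMEM (log2 fold change −0.71, SE 0.18, edgeR adjusted p = 0.00772). The media did not overlap in these genes. Called genes with reads in EMEM and 0 in Plasmax were LCN15 (0 reads in Plasmax and 84 in EMEM, at least 28.9-fold lower in Plasmax), MSMB (0 reads in Plasmax and 25 in EMEM, at least 8.61-fold lower), DBIL5P (0 reads in Plasmax and 23 in EMEM, at least 7.92-fold lower) and RCBTB2 (0 reads in Plasmax and 16 in EMEM, at least 5.51-fold lower), all chosen after their values were seen, with the floor of 3 reads over the medium. These bounds take the EMEM reads as observed, and the reads of MSMB, DBIL5P and RCBTB2 are few. LCN15, a lipocalin, kept its call in the 18 settings that tested it. MSMB lost its call in 9 of 17 alternative settings, among them the fits without Plasmax 1, Plasmax 2, Plasmax 3, EMEM 1 or EMEM 2 (adjusted p up to 0.242 over all settings). DBIL5P lost its call in 6 of 17 alternative settings, among them the fits without Plasmax 1, Plasmax 2, Plasmax 3 or EMEM 3 (adjusted p up to 0.128 over all settings). RCBTB2 lost its call in 7 of 17 alternative settings, among them the fits without Plasmax 1, Plasmax 2, Plasmax 3, EMEM 1 or EMEM 2 (adjusted p up to 0.201 over all settings).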

How the data were processed

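RNA of HepG2 cells was measured with QuantSeq 3′ libraries, 3 for each of 4 media. The authors deposited 1 table of raw counts per gene, and per the submitters' processing notes FastQC 0.72, cutadapt 1.16, STAR 2.7.5b, featureCounts 1.6.3, limma 3.40.6 and the build hg19 were used, with no role stated for each tool. Each gene had at least 2.51 CPM in 3 or more libraries, so low rows had been removed before deposit. The 601 rows without a symbol (2.92% to 3.71% of counts) entered neither library sizes nor tests, and no column of another series was present. Counts were scaled by TMM and tested with edgeR 4.0.16 (R 4.3.3) in 1 quasi-likelihood fit to all 12 libraries with medium as the only term and Benjamini-Hochberg adjustment over 10945 genes. SEs were taken as the log2 fold change over the square root of F. The biological coefficient of variation was 0.215, and the fit had 8 residual and 10.4 prior degrees of freedom. The fit was tested on simulated data. Group members, lists and families were chosen with earlier results of these data known.

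Named genes were the 12 largest rises and falls among calls without overlap whose mean reached 10 CPM, and the 8 calls without overlap that gained or lost most CPM. In each list they were preset genes plus up to 4 called members per direction with the smallest p. Some named genes are not reported here. No mitochondrial symbol carried the usual prefix, so these transcripts were matched by name. Same-numbered Plasmax and EMEM libraries did not deviate together, so numbers were not used as pairs. Alternatives were other scalings and filters, DESeq2 1.42.0, limma voom 3.58.1, the 6 libraries alone, a replicate block and each library left out. Promoters came from RefSeq (GRCh38.p14), and GTAAACA and CACGTG were searched besides the motifs given above.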

Additional observations from a re-analysis of the deposited data

How the results depend on the processing

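At an adjusted p of 0.01 the number of genes called between Plasmax and EMEM was 1290 (539 higher and 751 lower in Plasmax), and that between Plasmax and the mean of LGDMEM and HGDMEM was 1986. When each Plasmax or EMEM library was left out, 1693 to 2109 genes were called, 714 to 944 of them higher and 979 to 1165 lower. The lowest counts were without EMEM 1, and 1631 of the 1693 genes called without it were called in the same direction with all libraries. The contrast with LGDMEM and HGDMEM gave 2494 to 3275 in these fits. RLE, upper-quartile and library-size scaling gave 2422 to 2425 genes, a minimum mean of 5 CPM gave 2359, DESeq2 gave 2687, limma voom gave 2365 and the 6 libraries alone gave 2635. With rows lacking a symbol kept the count was 2332, and without mitochondrially encoded transcripts it was 2411. Leaving out LGDMEM 3, a choice made after seeing the data, gave 2663, of which 1211 were higher and 1452 lower, and 3479 against LGDMEM and HGDMEM. A replicate block gave 2529 calls. Deviations of same-numbered Plasmax and EMEM libraries correlated at −0.016, −0.025 and −0.0023, and at −0.0050, −0.048 and 0.140 over the 4366 genes whose mean log2 CPM was above 5, so the numbers were not taken as pairs. No gene called in any setting was called in the opposite direction. Of 350 called genes followed by name, 258 kept their call in all of the 18 or 19 settings that tested them, and of 133 not called 21 gained one. Counts of 3 or fewer members in a list often changed when a library was left out. The cause of these changes was not tested. Genes with few reads had to change by more to be called, so a gene that was not called may still differ.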
